A study of Homo sapiens with 4 samples.

Results

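MT-RNR2 is the mitochondrial gene of 16S rRNA, and its depth of reads was followed along its length in RNA that came down with Flag-SIRT7. The positions were chosen by the mitochondrial interval that heads them in the deposited table, chrM:1671-3229, and not by their values. They were 1559 of 15984 listed positions, in 4 libraries. Positions are counted from the first nucleotide of 16S, and the bases are those of the listed strand. The interval is headed by an identifier of the human mitochondrial reference sequence, and the gene was named from its position there. The counting of strands is not given in the sources used here, and copies of mitochondrial DNA in nuclear chromosomes could not be told apart.

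All libraries came from HEK293T, a human embryonic kidney cell line, stably overexpressing SIRT7 with a Flag tag and used at passages 10 to 15. Lysates were separated into cytosol and nucleus before the anti-Flag capture, and each fraction gave 2 libraries. Both fractions therefore carried the same transgene, and neither a line without it nor input RNA was analysed here. The values are read depths of RNA recovered from a fraction. They give neither the amount recovered nor enrichment over a background. Nothing in the labels says that the libraries of a fraction came from separate cultures, so p-values measure the spread between libraries, which may be technical. The table holds rRNA only, so neither SIRT7 nor markers of the cell line, of mitochondria or of either fraction could be checked in it.

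16S is the large-subunit rRNA of the mitochondrial ribosome, which makes the few proteins encoded by mitochondrial DNA. It is transcribed from one long precursor together with 12S, the small-subunit rRNA, and is released when the tRNAs on either side of it are cut out. Its 3′ part folds into the peptidyl transferase centre, where peptide bonds form, and into the sarcin-ricin loop, where translation factors bind. SIRT7 itself is a NAD-dependent deacylase known mainly from the nucleolus.

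The conserved functional elements of 16S are shown first, because they place the depth along the molecule. They were searched on both strands by short motifs, each of which occurred 1 time in 16S on the listed strand and 0 times on the other. The motifs were AAGGTAGC for helices 69 to 71, which face the small subunit, TGGGGCG for the P loop, which holds the end of the peptidyl-tRNA, and GGATAACAG for a part of the peptidyl transferase loop. The A loop, which holds the incoming aminoacyl-tRNA, was searched as TTTGTTC, and the sarcin-ricin loop as GTACGA with AGGAC after it at a distance of 0 or 1 base. No motif overlapped another. Of the 161 windows into which all rRNA sequences were divided, TGGGGCG was in 5.59% on either strand, AAGGTAGC in 1.24%, and each of the others in 0.621%. Capitals mark the motif, with 12 nt on each side.
Helices 69 to 71, chrM:2578-2609: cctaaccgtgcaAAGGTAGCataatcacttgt
P loop, chrM:2801-2831: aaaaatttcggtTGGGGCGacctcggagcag
Part of the peptidyl transferase loop, chrM:2921-2953: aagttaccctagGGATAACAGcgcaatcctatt
A loop, chrM:3025-3055: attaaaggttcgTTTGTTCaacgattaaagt

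The deepest window of 16S, nt 1401 to 1500, is shown whole because the largest values of all libraries and the only gap in the depth lie in it. Capitals mark the sarcin-ricin loop.
Deepest window, chrM:3071-3170: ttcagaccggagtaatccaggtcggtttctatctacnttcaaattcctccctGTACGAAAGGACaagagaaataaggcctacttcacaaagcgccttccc

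Depth of 16S rRNA was far higher in the nuclear than in the cytosolic libraries. Mean depth was 40.5 and 55.2 reads per position in cytosolic replicates 1 and 2, and 7306 and 5540 in nuclear replicates 1 and 2. The nuclear libraries lay far above the cytosolic ones with no overlap, while each library's mean over all listed positions was between 189023 and 211717. The increases of depth from base to base added up to 696 and 959 reads in the cytosol against 110826 and 84656 in the nucleus. A read that skips bases, as reads across the gap near nt 1437 may do, counts more than 1 time in this sum. The sum is therefore not a strict lower bound of the number of reads. Depth relative to the mean of the library was 0.000237 ± 5.9e-05 in the cytosol against 0.0319 ± 0.00368 in the nucleus (SD, n = 2). In a limma fit over the 10 rRNA regions, 16S rose 136.3-fold (95% interval 87.8 to 211.5, adjusted p = 3.1e-05). In that fit 40.0% of the regions rose and 10.0% fell. The other mitochondrial rRNA, 12S, rose as well, 59.4-fold (95% interval 40.1 to 87.9, adjusted p = 3.1e-05 in limma). In bulk RNA, more cells or organelles in a fraction and more RNA in each cannot be told apart.

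The rank of 16S among the 10 regions differed between the fractions. In the cytosol it was the 7th, below ITS2, a spacer of the nuclear precursor (relative depth 0.000540), and above the 5'ETS (6.3e-05). In the nucleus it was the 5th, below 12S (0.209) and above 5S rRNA (0.00212), which belongs to the cytosolic ribosome. The 2 libraries of 16S did not overlap those of either neighbour in either fraction. Every value here is a mean per position and so does not grow with the length of a region. Low depth near an end, as in 16S below, may weigh more on short regions such as 5S, which was not tested. By the shape of its levels over the 4 libraries, the nearest region was 12S, at a root mean square distance of 0.60 on the log2 scale. ITS2 at 2.72 and ITS1 at 2.99 came next. Mean depth at 12S was 15.4 and 14.8 times that at 16S in the cytosol against 6.34 and 6.82 times in the nucleus. The distance between the mitochondrial rRNAs was thus smaller in the nuclear libraries, with no overlap (exact permutation p = 0.333, two-sided, the smallest that 2 libraries against 2 allow).

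**Figure D1:**
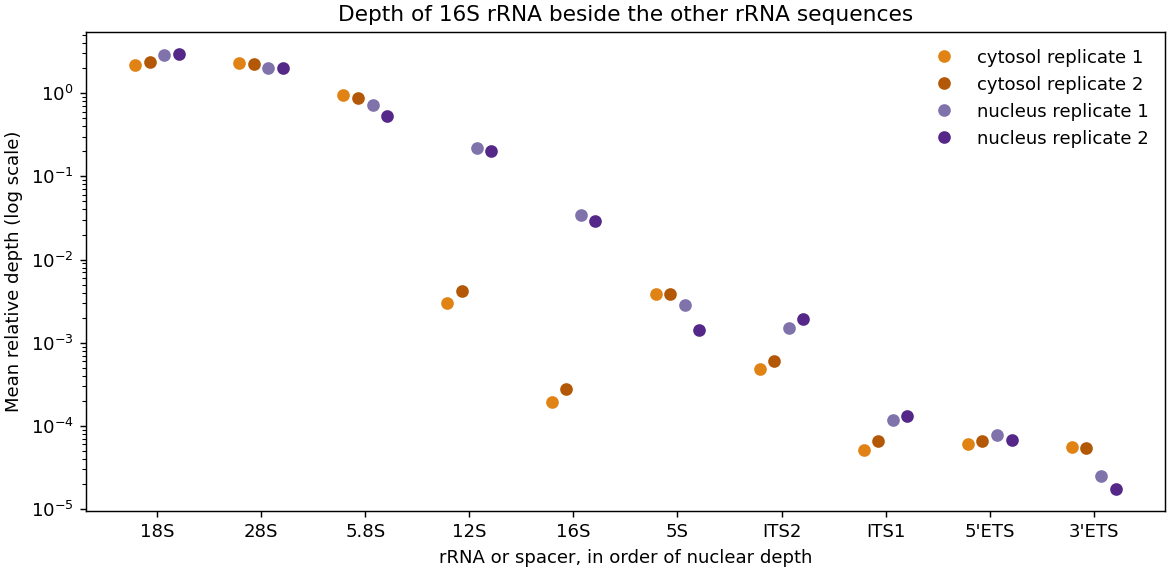
Mean relative depth (log axis, depth over the mean depth of the library) of 16S and the other 9 rRNA regions, in order of nuclear depth; each point is 1 of the 4 libraries. For 16S the nuclear points stand at 0.0345 and 0.0293 and the cytosolic points at 0.000195 and 0.000279, the widest distance between fractions among the regions.

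The rise covered the whole length of 16S. Both nuclear values were above both cytosolic ones at all 1559 positions, against 44.0% of the positions of the whole table. Among 1443 positions with at least 20 reads in both cytosolic libraries, the ratio of nuclear over cytosolic relative depth ran from 56.8 at nt 925 to 253.0 at nt 1078, with a median of 125.5. In windows of 100 nt, all 16 windows of 16S rose in limma, where 42.2% of 135 tested windows rose and 23.7% fell (65.9% changed either way), and both nuclear values lay above both cytosolic ones in all 16, against 51.9% of tested windows. Their log2 differences were between 5.90 and 7.70, with a median of 6.77 beside 0.24 over all tested windows. In the 10 tested windows of 12S, the log2 differences were between 5.01 and 6.17. The largest adjusted p among the 16 was 2.8e-04 with no variance trend. With the trend it was 1.3e-45, where limma pooled the variance over all windows as though neighbouring windows shared no reads. Over all alternatives it went up to 0.0105, with a pseudocount of 0.01. That pseudocount stood for 1890 to 2117 reads, and the log2 differences with it were 0.56 to 3.17.

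**Figure D2:**
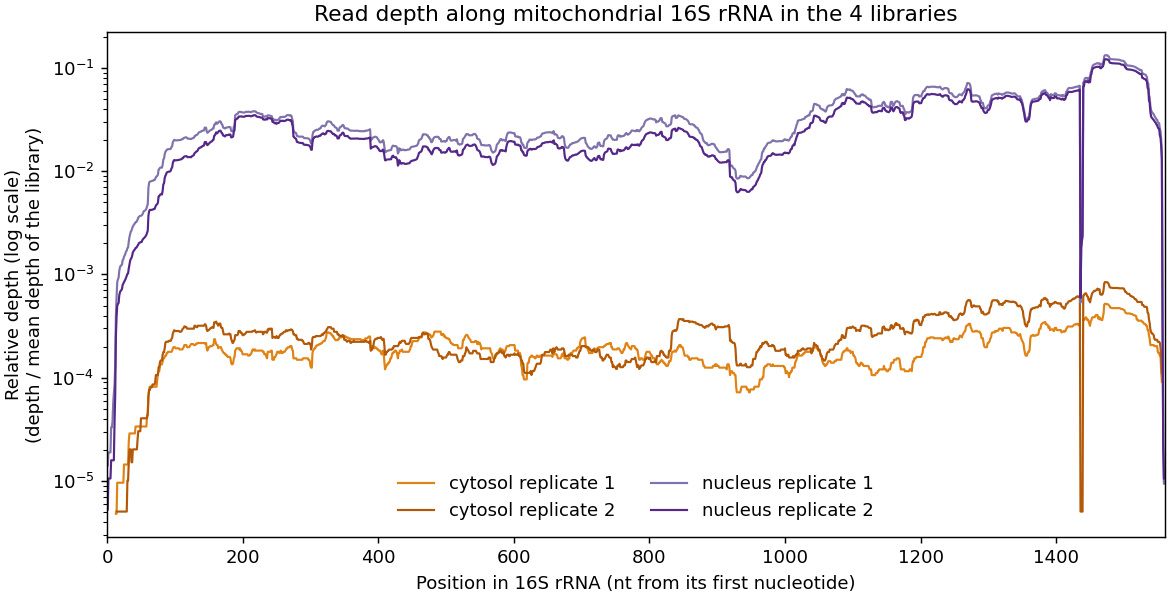
Relative depth (log axis, depth over the mean depth of the library) at each position of 16S rRNA, 1 line per library; positions with a depth of 0 are left blank. The nuclear lines lie above the cytosolic lines at all 1559 positions, all 4 are lowest at the ends and in a gap of 4 nt near nt 1437, and all have their highest point at nt 1472 or nt 1474.

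The highest depth lay in the 3′ part in every library. At nt 1401 to 1500, the window of the sarcin-ricin loop, mean depth was 76.3 and 122.9 reads in the cytosol against 18614 and 15317 in the nucleus. Each library had its highest window there, and its highest position close by, at nt 1472 in the cytosol (108 and 167 reads) and at nt 1474 in the nucleus (28075 and 22908 reads). Next in the nucleus came the last window, nt 1501 to 1559, with 14966 and 12128 reads, and nt 1201 to 1300, which holds the GGATAACAG motif, with 12281 and 9436. In the cytosol, by the mean of its libraries, the next were nt 1301 to 1400, which holds the A loop, with 56.7 and 99.6 reads, and the last window with 61.2 and 84.7. Cytosolic replicate 2 was above replicate 1 in each of these windows.

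By the mean of each fraction, the lowest depth lay at the 5′ end and around helices 69 to 71. The first window, nt 1 to 100, had 13.5 and 14.7 reads in the cytosol against 1318 and 679 in the nucleus, the lowest of the 16 windows in all 4 libraries. The window of helices 69 to 71, nt 901 to 1000, was the next lowest by the mean of each fraction, with 22.4 and 39.7 reads in the cytosol against 2961 and 1988 in the nucleus. The third from the bottom by that mean differed, being nt 601 to 700 in the cytosol (33.8 and 31.5 reads) and nt 401 to 500 in the nucleus (3924 and 2705). The cytosolic libraries disagreed on this order. In cytosolic replicate 2, windows other than the first were also shallower than nt 901 to 1000, such as nt 701 to 800 with 30.6 reads.

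The elements themselves lay at different depths. Over the motif of helices 69 to 71, depth was 0.571 and 0.777 times the 16S mean of the same library in the cytosol against 0.314 and 0.284 times in the nucleus. Over the P loop it was 0.624 and 1.07 times in the cytosol against 1.30 and 1.36 times in the nucleus. The GGATAACAG motif of the peptidyl transferase loop was above the 16S mean in every library, at 1.54 and 1.78 times in the cytosol against 1.88 and 1.90 times in the nucleus. At the A loop the fractions overlapped, at 1.32 and 1.71 times in the cytosol against 1.45 and 1.62 times in the nucleus. The sarcin-ricin loop was the deepest element in all 4 libraries, at 1.99 and 2.50 times in the cytosol against 3.14 and 3.43 times in the nucleus. Among these elements, the ratio of nuclear over cytosolic depth was lowest over helices 69 to 71 (58.4) and highest over the P loop (201.6).

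The fold between the fractions was not the same along 16S. It was largest at nt 1101 to 1200, the window of the P loop, where relative depth was 0.000215 ± 0.000119 in the cytosol against 0.0437 ± 0.00427 in the nucleus, a ratio of 202.8. The cytosolic libraries had 27.2 and 59.3 reads there, the largest ratio between them (2.18) among the 16 windows. The ratio was 201.8 at nt 1001 to 1100, with 32.9 and 39.5 reads in the cytosol against 8572 and 6015 in the nucleus, and 186.4 in the last window. The smallest ratios were 70.5 in the first window, 76.9 at nt 401 to 500, with 44.4 and 42.2 reads in the cytosol, and 79.3 at nt 901 to 1000. Windows that were deep in the nucleus tended to have large ratios (Pearson r = 0.85 across the 16 windows, which share the nuclear libraries on both axes).

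To compare the shape alone, each window was set against the depth of its own rRNA or spacer in the same library. The difference between fractions was tested over 133 windows of all listed sequences. Windows of the nuclear precursor that crossed a border were set against the region at their midpoint. Of the 16 windows of 16S, 6 passed the test in limma, with 4 lower and 2 higher in the nucleus. That is 37.5% of them, close to the 38.3% called among all tested windows (16.5% higher and 21.8% lower). The median difference was -0.26 on the log2 scale in 16S and -0.04 over all windows. In 12S, 2 of 10 windows passed.

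The windows that took less of the 16S depth in the nucleus all lay within the first 1000 nt. The first window had 0.333 and 0.266 times the 16S mean in the cytosol against 0.180 and 0.123 times in the nucleus, a log2 difference of -1.13 (SE 0.24). At nt 101 to 200 the values were 0.993 and 1.05 against 0.743 and 0.680 (log2 difference -0.52, SE 0.12). At nt 401 to 500 they were 1.10 and 0.765 against 0.537 and 0.488 (-0.84, SE 0.20), and at nt 901 to 1000, around helices 69 to 71, 0.553 and 0.720 against 0.405 and 0.359 (-0.76, SE 0.17). In each of these windows both nuclear libraries were below both cytosolic ones. The adjusted p-values from limma were 0.0295, 0.0299, 0.0309 and 0.0295 in this order.

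The windows that took more lay beyond nt 1000. At nt 1001 to 1100 the values were 0.811 and 0.717 times the 16S mean in the cytosol against 1.17 and 1.09 in the nucleus, a log2 difference of 0.55 (SE 0.13). The last window had 1.51 and 1.54 in the cytosol against 2.05 and 2.19 in the nucleus (0.50, SE 0.11). Their adjusted p-values from limma were 0.0304 and 0.0295. The deepest window, nt 1401 to 1500, had 1.88 and 2.23 in the cytosol against 2.55 and 2.76 in the nucleus but missed the threshold (0.40, SE 0.14, adjusted p = 0.0833 in limma), as did the window of the P loop (0.67, SE 0.24, adjusted p = 0.0848). In all, nuclear values lay above both cytosolic ones in 5 windows, below them in 6 and among them in 5. Over all 133 windows they lay above in 39.1% and below in 39.1%.

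These shape calls rested on few libraries. Without cytosolic replicate 1, or without nuclear replicate 2, 0 of the 16 windows passed in limma (6 in each case at an unadjusted p under 0.05), and 3 passed without cytosolic replicate 2. Over all alternatives the adjusted p of the first window ran from 3.0e-04 to 0.135 and that of the last from 5.7e-04 to 0.135.

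**Figure D3:**
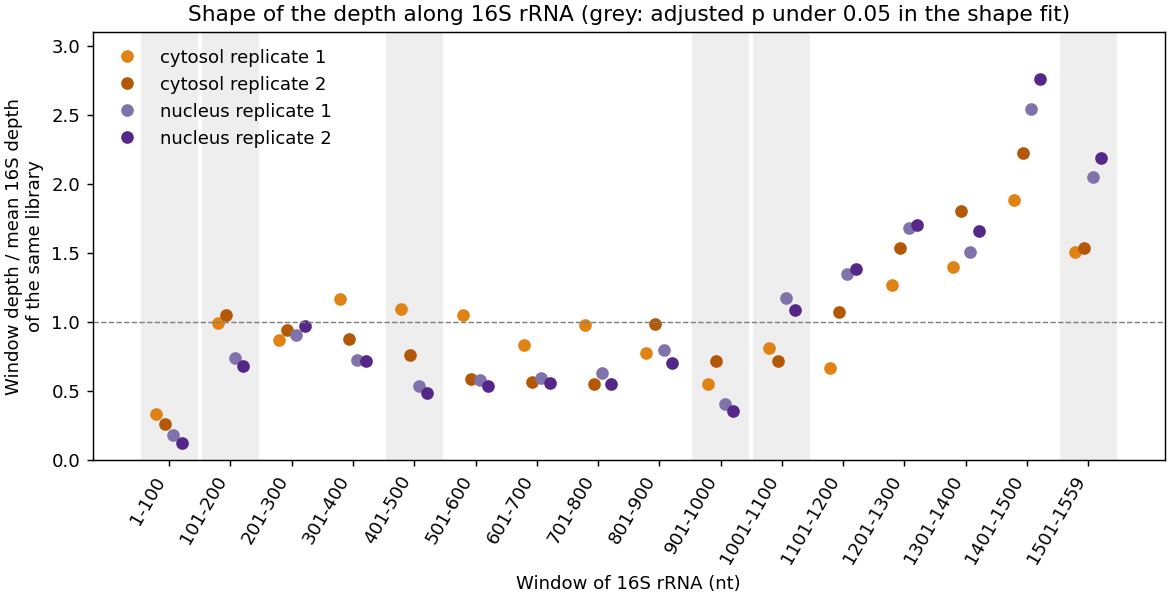
Depth of each 100-nt window of 16S rRNA (the last has 59 nt) divided by the mean 16S depth of the same library, 1 point per library; the dashed line marks the 16S mean and grey bands the 6 windows with an adjusted p under 0.05 in the shape fit. Nuclear points lie below the cytosolic ones in the 4 banded windows up to nt 1000 and above them in the banded windows at nt 1001 to 1100 and nt 1501 to 1559.

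The balance between the parts of 16S on either side of its middle summed up this tilt in 1 number per library. It was drawn from the same depths as the windows and is not separate support for them. Mean depth over nt 780 to 1559 was 1.18 and 1.83 times that over nt 1 to 779 in the cytosol against 2.28 and 2.47 times in the nucleus. The cytosolic libraries differed more from each other than the nuclear ones did, but the fractions did not overlap. Of the depth of 16S, nt 1001 to 1559 took 44.4% and 53.0% in the cytosol against 60.8% and 63.4% in the nucleus. For the parts on either side of the middle, the log2 ratios were 0.55 ± 0.45 and 1.25 ± 0.08 (SD, n = 2), a difference of 0.69 with an exact permutation p of 0.333. Without cytosolic replicate 1 the difference was 0.38 and without cytosolic replicate 2 it was 1.01. In 12S the same log2 ratio was 0.41 ± 0.04 in the cytosol against 0.27 ± 0.07 in the nucleus, where both nuclear values were the lower ones. The 16S ratio minus that of 12S was -0.14 and 0.44 in the cytosol against 0.97 and 0.98 in the nucleus (difference 0.83, exact permutation p = 0.333).

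Depth was also more uneven along 16S in the nucleus. The coefficient of variation of the 16 window means was 37.8% and 51.3% in the cytosol against 62.9% and 70.5% in the nucleus, with no overlap (difference 22.2 percentage points, exact permutation p = 0.333). The nuclear libraries were also the more uneven ones along 12S, with 41.8% and 42.3% in the cytosol against 51.5% and 54.8% in the nucleus. The difference there was 11.1 percentage points (exact permutation p = 0.333). The deepest window of 16S had 5.66 and 8.37 times the depth of the shallowest in the cytosol against 14.1 and 22.6 times in the nucleus. Across windows, log2 depth correlated closely between the nuclear libraries (r = 0.997) and less between the cytosolic ones (r = 0.797). Cytosolic replicate 2 resembled the nuclear libraries more (r = 0.912 and 0.920) than it resembled cytosolic replicate 1. These correlations are over 16 windows of the same molecule and are given as description.

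Base composition was set beside these patterns. 16S had 42.8% G+C and 35.1% A, against 69.4% G+C in 28S, the large-subunit rRNA of the cytosolic ribosome, and 45.5% in 12S. Window values ran from 33.0% to 51.0% G+C. Over the 16 windows, r between G+C and log2 depth was 0.16 in the nucleus and -0.02 in the cytosol, and r between G+C and the log2 ratio of the fractions was 0.32. With A content these were -0.28, -0.27 and -0.18.

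The dip around helices 69 to 71 began just before and within the conserved element, in all 4 libraries. Its sequence is given to place the dip on the element, with the motif in capitals. As background, helix 71 is known to carry 1-methyladenosine, made by the methyltransferase TRMT61B, and no modification was measured here.
Dip, chrM:2570-2625: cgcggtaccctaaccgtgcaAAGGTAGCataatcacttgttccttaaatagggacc
Over the 20 nt before the motif, mean depth was 26.2 and 60.7 reads in the cytosol against 3257 and 2296 in the nucleus. Over the 20 nt after it, depth was 16.1 and 26.1 in the cytosol against 1845 and 1220 in the nucleus. A single change stood out just before the motif, between nt 918 and nt 919, where depth went from 3352 to 2370 and from 2316 to 1673 reads in the nuclear libraries. In the cytosol the same step was from 26 to 22 and from 60 to 45 reads. The lowest nuclear depth of this stretch was at nt 930, with 1789 and 1176 reads.

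Shortly after the dip lies a short open reading frame. It was the 1 frame of 24 codons from ATG to stop in 16S by the standard code, and it has the length reported for humanin, a small secreted peptide encoded within MT-RNR2. Capitals mark its start codon.
Open reading frame, chrM:2633-2707: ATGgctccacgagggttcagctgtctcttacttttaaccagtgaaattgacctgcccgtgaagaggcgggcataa
Mean depth over it was 28.3 and 37.0 reads in the cytosol against 4862 and 3260 in the nucleus. This was 0.699 and 0.671 times the 16S mean in the cytosol against 0.666 and 0.588 times in the nucleus, below the mean in all 4 libraries. It was also below the median of 16S positions, which was 38 and 48 reads in the cytosol against 5372 and 3928 in the nucleus. Some windows of 16S were shallower than the frame. The ratio of the frame between the fractions was 124.3, near the median of single positions.

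The depth of 16S had 1 gap, which lay in all 4 libraries around the only base of the whole table listed as N. The human mitochondrial reference keeps a placeholder at this place, a position with no base in real molecules. Capitals mark the 4 positions of the gap, nt 1436 to 1439, in the sequence around it.
Gap, chrM:3091-3124: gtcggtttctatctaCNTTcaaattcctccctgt
The N itself is nt 1437 of 16S, mitochondrial position 3107. In nuclear replicate 1 depth was 14172 before the gap, 113 to 537 inside it and 15247 after it. In nuclear replicate 2 it was 11589 before, 112 to 440 inside and 12474 after. Cytosolic replicate 1 had 69 and 75 reads at the edges and 0 inside, which allows up to 4.17% of the flanking depth. Cytosolic replicate 2 had 121 and 123 at the edges and 1 inside. Mean depth inside was 2.56% and 2.68% of the flanks in the nucleus and 0.820% in cytosolic replicate 2. In a scan of 1539 positions, these 4 were the only ones with under 50% of the depth 6 nt away on both sides in the nuclear libraries, and the lowest share elsewhere was 72.5%. Leaving out the positions within 2 nt of the N changed no call of a 16S window in either window fit.

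**Figure D4:**
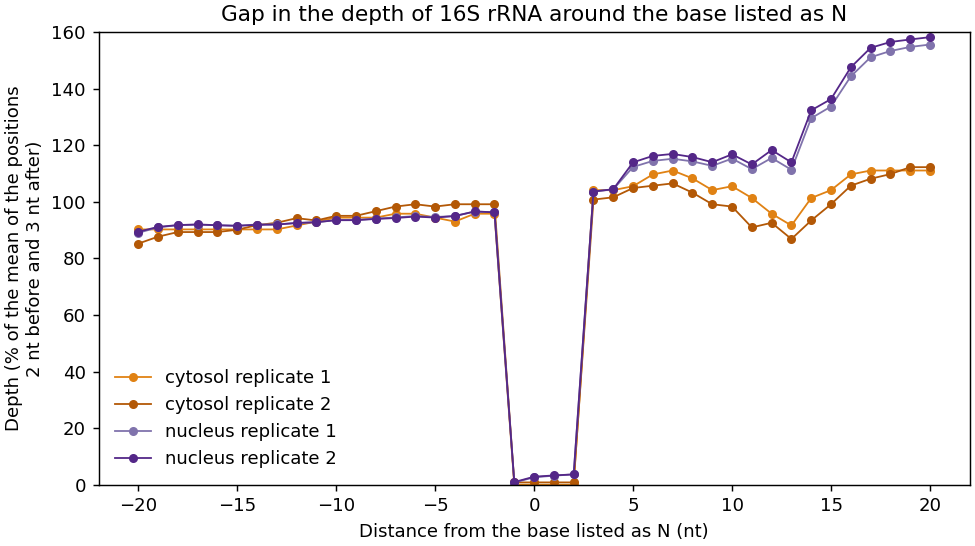
Depth within 20 nt of the base listed as N in 16S rRNA, as a percent of the mean depth of the positions 2 nt before and 3 nt after it, 1 line per library. All 4 lines drop to between 0% and 4% at the same 4 positions and return to above 100% at the next one.

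The 3′ end of the reads was sharp and lay 3 nt inside the listed interval. From nt 1556 to nt 1557 depth went from 3212 to 77 and from 2412 to 64 reads in the nuclear libraries, a drop of 97.6% and 97.3%, and from 19 and 22 reads to 0 in the cytosolic ones. Capitals mark the positions after this drop.
3′ end, chrM:3190-3229: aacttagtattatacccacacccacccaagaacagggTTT
Among positions with at least 1000 reads in both nuclear libraries, only the edge of the gap at the N had a larger drop to the next position. Beyond it, depth was 5 and 4 reads at nt 1558 and 2 in both nuclear libraries at nt 1559. In 12S the end was not of this form, since depth 20 nt before it (nt 934) was 7.62% and 5.36% of the 12S median in the cytosol against 2.71% and 3.02% in the nucleus. At the same distance from its end (nt 1539), 16S had 113.2% and 120.8% of its median in the cytosol against 169.6% and 180.9% in the nucleus.

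Within the last window depth had already come down in steps. Apart from the end itself, the steepest fall of 10-nt means along 16S in the nucleus was at nt 1539, from 16067 to 7627 and from 12882 to 6007 reads, with 63.1 to 42.6 and 88.4 to 50.7 in the cytosol. Its sequence is shown with the nucleotides after the fall in capitals.
Fall at nt 1539, chrM:3199-3218: ttatacccacACCCACCCAA
The next was the edge of the gap, at nt 1430, and the others were at nt 275, nt 923 and nt 1352. At nt 275 mean depth went from 7200 to 4813 and from 5771 to 3776 reads in the nucleus and from 40.6 to 31.5 and from 56.9 to 48.9 in the cytosol. The fall at nt 923 is the dip at helices 69 to 71. At nt 1352 it went from 10795 to 7269 and from 9012 to 6181 in the nucleus and from 51.8 to 37.0 and from 96.0 to 68.5 in the cytosol. All 5 places had a fall in each of the 4 libraries, so these steps of the profile were shared by the fractions.

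At the 5′ end the depth built up slowly. At nt 1 it was 0 in both cytosolic libraries, while the nuclear replicates had 3 and 1, and reached 2, 1, 257 and 131 reads at nt 20 and 41, 56, 4223 and 2409 at nt 100, in the order of cytosolic and then nuclear replicates. Depth first reached 50% of the library's own 16S median at nt 74 and nt 76 in the cytosol, and later, at nt 83 and nt 95, in the nucleus. A slow start was also seen in 12S. At nt 20 of 12S, depth was 2.93% and 3.83% of the 12S median in the cytosol against 5.56% and 3.55% in the nucleus. At nt 100 of 12S it was 72.1% and 68.8% against 69.3% and 48.9%. The steepest rise of 10-nt means along 16S, a ratio that starts from a depth near 0, was at nt 11. The means went from 6.8 to 155.8 and from 2.4 to 81.0 reads in the nucleus, and from 0 to 1.4 and from 0 to 0.7 in the cytosol. Between nt 12 and nt 13, nuclear depth went from 28 to 84 and from 13 to 47 reads. The sequence around nt 11 is shown with the nucleotides of the second mean in capitals.
Rise at nt 11, chrM:1671-1690: gctaaacctaGCCCCAAACC
Of the other rises, those at nt 32, nt 61 and nt 83 also lay within the first window, and that at nt 1440 was the far edge of the gap. At nt 61, for example, depth went from 883.3 to 1674 and from 438.1 to 789.3 reads in the nucleus and from 7.4 to 16.6 and from 8.1 to 15.9 in the cytosol.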

How the data were processed

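Directional libraries were sequenced from RNA bound to Flag-SIRT7, 2 of the cytosol and 2 of the nucleus. The submitters' processing notes name cutadapt 1.5, Bowtie2 2.2.6 and SAMtools, with settings not given in the sources used here. The deposited table holds the authors' coverage signal, the number of reads over each position of each library, with no scaling. Neighbouring positions share reads, so depth was not treated as independent counts and no count model was used. Summed depth was between 3021350782 and 3384088983 per library. Reads per 16S position limit the precision of the cytosolic values.

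Depth was divided by the library's mean over all 15984 positions (relative depth) and averaged in windows of 100 nt. A remainder shorter than 50 nt was merged into its neighbour. The test took windows that reached a mean depth of 10 in 2 or more libraries, and used limma 3.58.1 (R 4.3.3) on log2(relative depth + 0.00001), fold changes being on that scale, with Benjamini-Hochberg adjustment over these windows and a threshold of 0.05. The shape fit used the log2 value of a window minus that of the rRNA or spacer at its midpoint. The fit over 10 regions used neither a pseudocount nor a trend. Single values per library were compared by two-sided exact permutation tests. The limma calculation of the region and window fits was tested on simulated windows, drawn independently of each other. The region fit, which has no trend, and the other steps were not tested in this way. Replicates of a fraction differed by more than sampling noise over 16S positions 150 nt apart (chi-square p = 0.00183 in the cytosol and 2.7e-60 in the nucleus), so none was taken as deposited a second time.

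16S and all lists, motifs and tests were chosen with earlier results of these data known. Windows named with values were the 3 deepest and 3 shallowest of each fraction, the 3 largest and 3 smallest ratios, the first and last, those called in the shape fit and those with a conserved element. One further element is not reported here. The 5 steepest rises and falls were named too. The dip, the reading frame, the gap, the ends and the extreme single positions were singled out after their values were seen. Scaling, medians, libraries left out, pseudocount, depth minimum, window size, trend and the replicate block were tried as alternatives.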

Additional observations from a re-analysis of the deposited data

How the results depend on the processing

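The higher level of 16S in the nucleus kept its direction and its call in all alternatives of the region fit, with log2 differences of 6.77 to 7.35. All 16 windows rose in every alternative with windows of 100 nt, as did 31 of 31 windows of 50 nt and 8 of 8 of 200 nt. In the region fit, which has no pseudocount, scaling by the median of ratios moved the log2 difference by -0.18 and scaling to 28S by 0.19. No call of 16S in the region fit or the window fit changed with either.

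The shape calls were less stable than the level. Against 6 of 16 windows, 14 passed with a pseudocount of 0.01 and 3 of 8 with windows of 200 nt, which are fewer by construction. With one library left out 0 to 4 passed, the lone library being assumed to vary like the others. With the replicate block 3 passed. Same-numbered libraries did not deviate together (r = 0.048 over 135 windows). This correlation cannot tell whether same-numbered libraries came from the same lysate. With medians over positions 5 windows were higher and 2 lower. The causes were not tested. Over the alternatives, called windows kept their call in 65 comparisons and missed the threshold, in the same direction, in 26. The windows at nt 201 to 300, 601 to 700, 701 to 800, 801 to 900 and 1301 to 1400, which were not called, changed sign in some alternatives. With one library left out, the difference between fractions was 0.38 to 1.01 for the tilt to the 3′ part, 1.15 to 1.25 for the log2 ratio of 16S to 12S and 15.4 to 29.0 percentage points for the unevenness. The ratio to 12S differed by 0.95 with medians over positions. These 3 values kept their direction in all alternatives run. Cytosolic depth in windows was 13.5 to 122.9 reads per position, which limits the precision of the shape values.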
